A study of Mus musculus with 6 samples.

Results

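Animal cells adjust their cholesterol supply through the sterol regulatory element-binding proteins (SREBPs), transcription factors that are held in the membrane of the endoplasmic reticulum (ER) until sterols run low. The genes described here are the SREBP precursors Srebf1 and Srebf2, the sterol-sensing escort Scap, the ER retention proteins Insig1 and Insig2, the activating proteases Mbtps1 and Mbtps2, the ubiquitin ligase Mylip, which marks the LDL receptor for degradation, and the sterol carrier Stard4. They were chosen by symbol, and all 9 were found among the 35353 genes that could be read from the 35434 rows of the deposited expression table.

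The cells were bone marrow-derived macrophages (BMDMs) from femurs of C57BL/6 mice, grown for 7 days in 10 ng/ml of macrophage colony-stimulating factor. Wild-type mice of this strain were obtained at 6 weeks of age, and the age at which the marrow was taken is not stated. The 3 Ctrl libraries came from cells without zoledronic acid (ZA), and the 3 ZA libraries from cells taken 12 h after ZA stimulation, at a concentration that is not named for these libraries. ZA is a nitrogen-containing bisphosphonate, a drug that blocks bone resorption by inhibiting farnesyl diphosphate synthase, an enzyme of the mevalonate pathway from which cholesterol and isoprenoids are made. The comparison asks how the transcripts of macrophages differ after ZA, and both groups share the genotype and the culture. Nothing in the labels says that replicates came from separate animals or cultures, so that p-values measure only the spread between these libraries, which may be technical. RNA was measured in bulk, where fewer cells of a type and less RNA per cell cannot be told apart.

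When membrane sterol is plentiful, Scap binds Insig and the precursors stay in the ER. When it falls, Scap carries them in coated vesicles to the Golgi, where the proteases encoded by Mbtps1 and Mbtps2 cut them in turn and release the active factor. SREBP-2 mainly drives genes of cholesterol synthesis and uptake, SREBP-1 mainly genes of fatty acid synthesis, and both Insig1 and Srebf2 are known targets of the pathway, which gives it feedback. Mylip, also called IDOL, answers instead to the liver X receptors (LXR), which sense oxysterols and act when sterol is in excess.

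The 250 bases before the annotated transcription start are shown for Srebf2 and Insig1, which were higher after ZA, and for Mylip, which was lower, since these are the windows in which pathway motifs were searched. They are RefSeq sequences of build GRCm38.p6, on the plus strand, from chr15:82147019-82147268, chr5:28071162-28071411 and chr13:45389492-45389741. Capitals mark every match, on either strand, to TCACCCCA (core of a sterol regulatory element), CACGTG (E-box), CCAAT (bound by NF-Y, and read as ATTGG on the other strand) and GGGCGG (bound by Sp1, and read as CCGCCC on the other strand).
Srebf2: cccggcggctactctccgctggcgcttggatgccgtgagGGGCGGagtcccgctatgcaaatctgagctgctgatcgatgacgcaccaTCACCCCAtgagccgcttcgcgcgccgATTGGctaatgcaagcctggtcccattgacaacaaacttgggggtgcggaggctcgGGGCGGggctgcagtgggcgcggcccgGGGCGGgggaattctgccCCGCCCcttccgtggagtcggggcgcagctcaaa
Insig1: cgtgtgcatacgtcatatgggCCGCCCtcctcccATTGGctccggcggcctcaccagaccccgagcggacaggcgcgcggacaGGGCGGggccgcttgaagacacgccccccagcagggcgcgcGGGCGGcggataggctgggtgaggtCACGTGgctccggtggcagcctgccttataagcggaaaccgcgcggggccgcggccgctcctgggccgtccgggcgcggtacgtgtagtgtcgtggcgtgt
Mylip: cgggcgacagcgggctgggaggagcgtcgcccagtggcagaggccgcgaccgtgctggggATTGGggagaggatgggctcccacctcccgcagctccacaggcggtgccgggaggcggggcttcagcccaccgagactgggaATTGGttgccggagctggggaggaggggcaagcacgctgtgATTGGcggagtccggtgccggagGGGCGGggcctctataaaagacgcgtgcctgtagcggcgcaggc
The core TCACCCCA was found before Srebf2, from base -162 to -155, and in 1.34% of all 32851 promoters of the same length. It was added to the search after the Srebf2 sequence had been read. The longer sterol regulatory element SRE-1, which contains this core, had been searched as well and was found in 0 of the 13 promoters of these genes and in 24 of all 32851 (0.0731%). Insig1 held CACGTG from base -101 to -96, as did 6.02% of all promoters. The Mylip window held 3 CCAAT matches, at bases -190, -108 and -67 (first base of each), and 1 GGGCGG.

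Promoters were matched for 8 of the 9 genes, 13 in all, because some genes have several annotated starts, and none was matched for Stard4. CCAAT occurred in 6 of the 13 promoters, which belong to 5 genes, and in 33.8% of all promoters. GGGCGG occurred in 9 of the 13, which belong to 7 genes, and in 32.7% of all promoters, so that both are common motifs. A match describes the letters in this window and not a bound site.

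**Figure D1:**
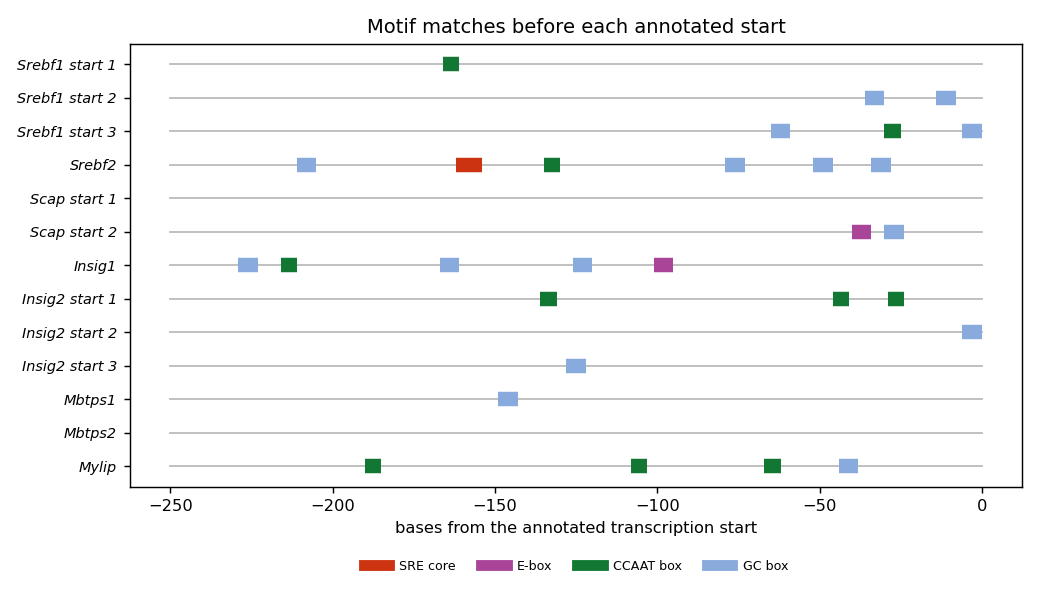
Matches to the motifs in the 250 bases before each annotated start of the 8 genes with a promoter, with the distance from the start in bases on the x axis and 1 line per start. Among these starts the only match to the SRE core lies before Srebf2, and the E-box matches lie before Insig1 and the second start of Scap.

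ZA-treated BMDMs had more RNA of 3 genes of the pathway, Insig1, Stard4 and Srebf2, and less of Mylip. Insig1 and Stard4 passed an adjusted p-value of 0.05 in limma, a linear model fitted across the 9800 genes whose FPKM averaged 1 or more, where FPKM is fragments scaled by gene length and library total. That is 2 of 9 genes, where 0.367% of all genes tested passed in either direction. Srebf2 and Mylip passed only the unadjusted threshold, which makes 4 of 9 where 12.3% of all genes passed. In the same 4 genes the ZA and Ctrl libraries did not overlap, as for 18.1% of all genes tested (ZA above in 11.4%, below in 6.76%). Srebf1, Scap, Insig2, Mbtps1 and Mbtps2 passed neither. The 9 genes were chosen with earlier results of these data known, so that these shares are not an independent test. All 9 were well measured, with 1013 to 8787 fragments per library, where the median over genes tested was 1395.

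**Figure D2:**
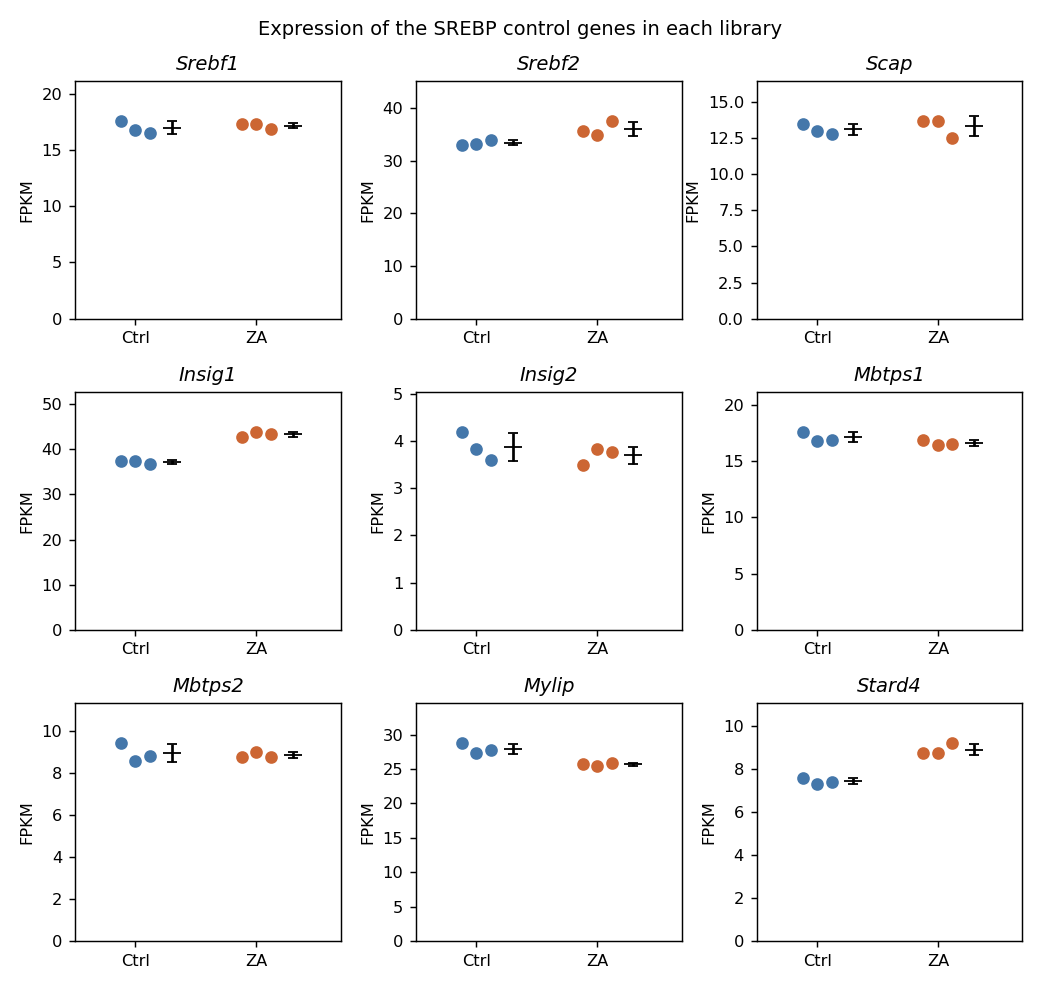
FPKM of each gene (y axis, starting at 0) in the 3 Ctrl and the 3 ZA libraries, with points for libraries and black bars for the mean ± SD. The groups are separate for Insig1, Stard4, Srebf2 and Mylip and overlap for the other genes.

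Insig1, which holds the Scap-SREBP complex in the ER, showed the clearest difference. Its Ctrl libraries 1, 2 and 3 had FPKM values of 37.4, 37.5 and 36.7, and its ZA libraries 1, 2 and 3 had 42.7, 43.9 and 43.4. Every ZA library lay above every Ctrl library, and the spread within each group was small, with coefficients of variation of 1.27% and 1.33% beside 1.5% from counting fragments alone. The mean rose from 37.2 ± 0.473 to 43.3 ± 0.577 (SD, n = 3), which is 16.4% higher. On the log2(FPKM + 1) scale Insig1 rose by 0.21 (standard error 0.02, 95% interval 0.16 to 0.27, adjusted p = 0.0304 from limma with Benjamini-Hochberg adjustment). By p-value it stood 6th of the 9800 genes. The call did not hold in every setting, with an adjusted p of 0.150 without the filter on low values and 0.0995 without a trend in the variance prior. It was kept without ZA 1 (adjusted p = 0.0331) and lost without any other single library (0.0754 to 0.183), while the log2 fold change stayed between 0.20 and 0.22.

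Insig2, the second retention protein, which unlike Insig1 is not known as a classical SREBP target, was the lowest of the 9 genes. Its Ctrl libraries had FPKM values of 4.20, 3.84 and 3.61, and its ZA libraries 3.50, 3.84 and 3.77. The groups overlapped, and the log2 fold change was -0.05 (95% interval -0.18 to 0.07), which allows a change between -11.8% and 5.15% on the FPKM + 1 scale. Within each library, Insig1 was 8.91, 9.76 and 10.1 times Insig2 in Ctrl, and 12.2, 11.4 and 11.5 times in ZA. This ratio does not depend on scaling between libraries, and all 3 ZA values lay above the Ctrl values. The log2 ratio was 0.29 higher in ZA, with an exact two-sided permutation p of 0.1, the smallest that 3 against 3 libraries can give (0.3 adjusted over the 3 ratios tested).

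Srebf2 encodes the SREBP-2 precursor. Its Ctrl libraries had FPKM values of 33.0, 33.2 and 33.9, and its ZA libraries 35.6, 34.9 and 37.6. All ZA libraries were higher than all Ctrl libraries, with ZA 3 the farthest above. The Ctrl mean of 33.4 ± 0.442 compared with a ZA mean of 36.0 ± 1.40 (SD, n = 3), a difference of 7.92%. The log2 fold change was 0.11 (standard error 0.03, 95% interval 0.03 to 0.18) with an unadjusted p of 0.0110 and an adjusted p of 0.250 from limma, so that the difference did not pass over all genes tested. It was 0.0757 without ZA 3, and the unadjusted p stayed under the threshold in all 14 alternative settings, with adjusted values from 0.131 to 0.487.

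Srebf1, which encodes the SREBP-1 precursors, had FPKM values of 17.6, 16.8 and 16.5 without ZA and 17.3, 17.3 and 16.9 with it. The groups overlapped, and the 95% interval of the log2 fold change ran from -0.06 to 0.09. The table has 1 row per gene and does not separate the SREBP-1a and SREBP-1c transcripts. The ratio of Srebf2 to Srebf1 was 1.87, 1.97 and 2.06 without ZA and 2.05, 2.02 and 2.23 with it, and these ranges overlapped (log2 difference 0.09, exact permutation p = 0.3, adjusted 0.45).

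Scap, the escort that senses sterol, had FPKM values of 13.5, 13.0 and 12.8 without ZA and 13.7, 13.7 and 12.5 with it. ZA 3 was both the lowest library for Scap and the highest for Srebf2. The log2 fold change of Scap was 0.02 (95% interval -0.08 to 0.11), and its sign turned when ZA 1 or ZA 2 was left out. The ratio of Srebf2 to Scap was 2.44, 2.57 and 2.64 without ZA and 2.60, 2.55 and 3.02 with it, with overlapping groups (exact permutation p = 0.5, adjusted 0.5). Its log2 difference was 0.0927, and 0.0173 without ZA 3.

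The proteases did not differ beyond the spread between libraries. Mbtps1 encodes the site-1 protease, which makes the first cut in the Golgi, and had FPKM values of 17.6, 16.8 and 16.9 without ZA and 16.9, 16.4 and 16.5 with it. Mbtps2 encodes the site-2 protease, which cuts within the membrane, and had 9.45, 8.61 and 8.83 without ZA and 8.78, 9.02 and 8.77 with it. For both, the ZA and Ctrl libraries overlapped. The log2 fold changes were -0.04 (95% interval -0.11 to 0.03) for Mbtps1 and -0.01 (95% interval -0.11 to 0.08) for Mbtps2, and the sign of Mbtps2 turned without Ctrl 1.

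Stard4 encodes a soluble carrier that moves cholesterol between membranes, and it is a known SREBP-2 target. Its Ctrl libraries had FPKM values of 7.59, 7.32 and 7.41, and its ZA libraries 8.75, 8.74 and 9.21, so that every ZA library exceeded every Ctrl library. The mean rose from 7.44 ± 0.137 to 8.90 ± 0.268 (SD, n = 3), or by 19.7%, the largest relative change among the 9 genes. The log2 fold change was 0.23 (standard error 0.04, 95% interval 0.15 to 0.31, adjusted p = 0.0490 from limma), just inside the threshold, and the log2 ratio of the mean FPKM without the added 1 was 0.26. The call was kept in only 3 of the 14 alternatives. It was lost most clearly when weakly expressed genes stayed in the fit (adjusted p = 0.228), and also with an untrended variance prior (0.0995). It was lost more narrowly after centring on the median (0.0523), with a block for the replicate number (0.0508) and after quantile normalization (0.0577). Leaving out any single library lost it too (0.0598 to 0.200). The direction and an unadjusted p under 0.05 held in all 14 alternatives.

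Mylip was lower in ZA. Its Ctrl libraries had FPKM values of 28.8, 27.4 and 27.7, and its ZA libraries 25.7, 25.4 and 25.9, and all ZA libraries lay below all Ctrl libraries. The Ctrl mean of 28.0 ± 0.717 compared with a ZA mean of 25.7 ± 0.251 (SD, n = 3), a change of -8.10%. The log2 fold change was -0.12 (standard error 0.03, 95% interval -0.18 to -0.05), with an unadjusted p of 0.00313 and an adjusted p of 0.152 from limma. It stayed between -0.13 and -0.10 in the 14 alternatives, with an unadjusted p under 0.05 in each and adjusted values from 0.0847 to 0.376.

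**Figure D3:**
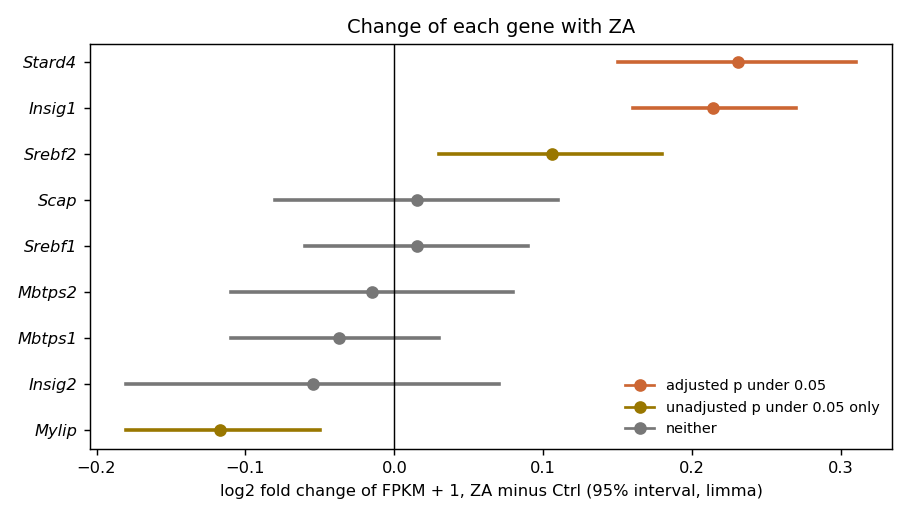
The log2 fold change of FPKM + 1 (x axis, ZA minus Ctrl) of the 9 genes, with points for the limma estimate and lines for its 95% interval. Insig1 and Stard4 passed the adjusted threshold, Srebf2 and Mylip the unadjusted one only, and the intervals of the other genes include 0.

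The levels of the 9 genes can be set beside each other because FPKM is scaled by gene length. In Ctrl, Insig1 was highest at 37.2, followed by Srebf2 at 33.4 and Mylip at 28.0. Mbtps1 at 17.1 and Srebf1 at 17 did not differ beyond their spread, and Scap at 13.1, Mbtps2 at 8.96, Stard4 at 7.44 and Insig2 at 3.89 followed without overlap. The highest mean was 9.58 times the lowest. In ZA the first 3 places were unchanged, and the gap between Srebf2 at 36.0 and Mylip at 25.7 was wider than in Ctrl. Stard4 at 8.90 reached the level of Mbtps2 at 8.86, and their libraries overlapped.

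The genes that SREBPs are known to drive were read from lists that hold none of the 9 genes. These lists were chosen with earlier results of these data known, so that their counts are not an independent test. Of 22 genes of sterol synthesis, 20 had more RNA in ZA at an unadjusted p under 0.05 and 0 less. Over all genes tested, 7.50% were higher and 4.85% lower. At the adjusted threshold 7 of the 22 were higher in limma on FPKM, beside 0.204% of all genes tested. With voom 12 of the 22 were higher, beside 71 of all 9800 genes tested. These adjusted calls depended on the setting, with 0 of the list without a filter on low values, without a trend in the variance prior, and without Ctrl 1, Ctrl 2 or ZA 2, 1 without Ctrl 3 and 2 without ZA 3, while 16 to 19 stayed under the unadjusted threshold with any library left out. Their median log2 fold change was 0.247, beside 0.010 over all genes tested, and Insig1 and Stard4 lay near this median. Msmo1, a methylsterol oxidase, rose from 43.2 ± 1.46 to 52.7 ± 1.08 FPKM, and Cyp51, the lanosterol demethylase, from 14.3 ± 0.371 to 18.5 ± 0.953 (SD, n = 3, adjusted p = 0.0304 from limma for each). Fdps, named after its values were seen because it encodes the enzyme that ZA inhibits, rose from 30.5 ± 0.333 to 39.4 ± 2.98 (adjusted p = 0.0453). The genes that did not pass were Ggps1 and Ebp, named after their values were seen. Ggps1, which makes geranylgeranyl diphosphate on a branch outside the sterol line, had 3.35 ± 0.0841 in Ctrl against 3.08 ± 0.189 in ZA. All ZA libraries of Ggps1 lay below all Ctrl libraries. Ebp, a sterol isomerase, was at 29.6 ± 0.475 and 29.2 ± 0.313, with overlap.

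Of 12 tested genes of fatty acid synthesis under SREBP-1, 6 were higher at an unadjusted p under 0.05 and 0 lower. Over all genes tested, 7.50% were higher and 4.85% lower. The median log2 fold change of the 12 was 0.082, beside 0.010 over all genes tested. The stearoyl-CoA desaturase Scd2 rose from 32.3 ± 0.519 to 37.3 ± 0.616 FPKM (adjusted p = 0.0449), and the fatty acid synthase Fasn from 9.68 ± 0.133 to 11.7 ± 0.520 (adjusted p = 0.0487 from limma). Both calls were lost with any single library left out, without a filter and without a trend. The call of Fasn was also lost after centring on the median and after quantile normalization, where Scd2 kept its call. Adjusted values went up to 0.200 for Scd2 and 0.228 for Fasn, and both genes kept their direction in all 14 alternatives. Fads2, a desaturase of polyunsaturated fatty acids, was at 5.09 ± 0.408 and 6.60 ± 0.542 (SD, n = 3), and its adjusted p of 0.109 did not pass. These values stood beside a Srebf1 level that did not differ between the groups beyond its spread.

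**Figure D4:**
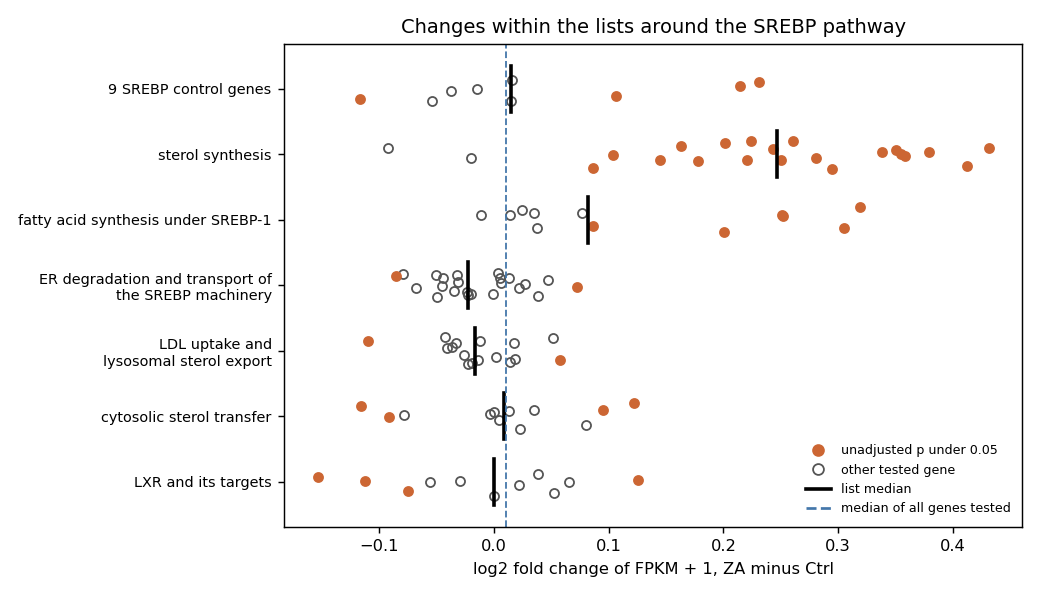
The log2 fold change of FPKM + 1 (x axis, ZA minus Ctrl) of each tested gene, for the 9 genes and for 6 lists around them, with filled points for an unadjusted p under 0.05, black bars for list medians and a dashed line for the median of all genes tested, 0.010. Most genes of sterol synthesis lie to the right of this line, and the lists of ER transport, LDL uptake, sterol transfer and LXR lie around it.

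The proteins that degrade Insig or carry Scap to the Golgi were also read. Of 23 tested genes of this list, 1 was higher and 1 lower at an unadjusted p under 0.05, 0 passed the adjusted threshold in limma on FPKM or with voom on fragments, and the median log2 fold change was -0.022. Sec23b, a subunit of the COPII vesicle coat, had 18.9 ± 0.258 FPKM in Ctrl against 17.8 ± 0.168 in ZA, and Erlin2, an ER membrane protein that takes part in degradation, at 14.2 ± 0.183 and 14.9 ± 0.270. Vcp, the ATPase that pulls ubiquitinated proteins from the ER, was at 97.1 ± 1.24 and 94.1 ± 1.17 (SD, n = 3). The share of this list that passed, 2 of 23, was no higher than the 12.3% of all genes tested.

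Around Mylip, 16 genes of LDL uptake and lysosomal sterol export were tested, with 1 higher and 1 lower at an unadjusted p under 0.05, 2 of 16 beside 12.3% of all genes tested, 0 at the adjusted threshold in limma on FPKM or with voom, and a median log2 fold change of -0.017. The lysosomal cholesterol-binding protein Npc2 had 510 ± 2.49 FPKM in Ctrl against 530 ± 8.32 in ZA, and the lysosomal membrane protein Lamp2 had 121 ± 3.55 against 125 ± 0.497 (SD, n = 3).

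Mylip is itself a known LXR target. Of 11 other genes, LXR with its partners and targets, 1 was higher and 3 lower at an unadjusted p under 0.05. Over all genes tested these shares were 7.50% and 4.85%. At the adjusted threshold 0 of the 11 passed in limma on FPKM. With voom 1 was lower, beside 61 lower of all 9800 genes tested. Abca1, which exports cholesterol to lipid-poor apolipoprotein, had 51.4 ± 0.978 FPKM in Ctrl against 46.1 ± 2.43 in ZA, with all ZA libraries below all Ctrl libraries. Abcg1, which exports cholesterol to lipoprotein particles, was at 62.7 ± 2.32 and 57.9 ± 0.630, also without overlap. Rxrb, a partner of LXR in its dimer, was at 19.5 ± 0.619 and 21.4 ± 1.11 (SD, n = 3). The log2 fold changes were -0.15, -0.11 and 0.13, beside -0.12 for Mylip, and the median of the list was -0.000.

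Stard4 was set beside 12 other tested genes of the list called sterol transfer, which also holds carriers of other lipids. Of these 12, 2 were higher and 2 lower at an unadjusted p under 0.05. That makes 4 of 12 beside 12.3% of all genes tested. At the adjusted threshold 0 passed in limma on FPKM. With voom 1 was lower, beside 61 lower of all 9800 genes tested. The median log2 fold change was 0.009. Osbpl8, a lipid exchanger of ER contacts, had 91.3 ± 1.27 FPKM in Ctrl against 85.6 ± 2 in ZA. Gramd1b, an ER protein that takes up cholesterol from the plasma membrane, was at 4.93 ± 0.111 and 4.47 ± 0.119, and Osbpl2, an oxysterol-binding protein relative, at 6.81 ± 0.372 and 7.50 ± 0.0423 (SD, n = 3).

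The genes most like Insig1, Stard4 and Srebf2 across the 6 libraries were found by the smallest root mean square difference of log2(FPKM + 1) centred on its mean, over 9799 other genes. This measure includes the difference between groups and describes likeness with no test. For Stard4 the nearest were Pstpip2 (0.0133), Scd2 (0.0243) and Fasn (0.0254), and Insig1 came 4th at 0.0307. For Insig1 they were Klhl8 (0.0271), Btd (0.0271) and Pou2f2 (0.0272), and Stard4 came 6th. For Srebf2 they were Tcof1 (0.00690), Fbxw9 (0.0118) and Trafd1 (0.0131), and the closest of the 9 genes was Stard4 at place 3328 (0.0663). Places depend on the gene they are read from. At the same distance Srebf2 stood at place 164 for Stard4, and it stood at place 341 for Insig1 (0.0675).

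Library totals ran from 41230600 to 42155808 fragments. All 10 macrophage markers had a mean FPKM of at least 1, with Csf1r, the receptor for macrophage colony-stimulating factor, at 772 in Ctrl and 835 in ZA. Their summed FPKM was 23722 to 27641 in Ctrl and 24621 to 28124 in ZA, and most of it was Lyz2, with means of 22500 and 22900. Adgre1 had 532 in Ctrl and 581 in ZA. For Adgre1, Csf1r, Cd68 and Cd14 all ZA libraries lay above all Ctrl libraries, as for 11.4% of all genes tested. The log2 fold change of Cd68 was only 0.02 (unadjusted p = 0.358 from limma). The other macrophage markers overlapped. At an unadjusted p under 0.05, 3 of 10 were higher with ZA, beside 7.50% of all genes tested. The adjusted threshold left 0 in limma on FPKM. With voom 2 of the 10 passed it, beside 132 of all 9800 genes tested. The filter on low values left 6 of 11 neutrophil and progenitor markers to test. Of these 6, 4 were lower at an unadjusted p under 0.05, beside 4.85% of all genes tested. None of the 6 passed the adjusted threshold in limma on FPKM or with voom. Ly6g was at 0 in all libraries, and the sum of the 11 was 35.6 to 50.9 in Ctrl and 31.5 to 37.1 in ZA. The sum of 5 B cell markers was 2.33 to 3.04 in Ctrl and 2.07 to 2.32 in ZA. The summed markers of T cells, dendritic cells, erythroid cells, fibroblasts, endothelial cells, mast cells and osteoclasts each overlapped between the groups. Single markers among them, named after their values were seen, were lower in ZA, with Acp5 of the osteoclast list at a log2 fold change of -0.21 (unadjusted p = 0.0256 from limma) and Cxcl12 of the stromal list at -0.35 (unadjusted p = 0.0278 from limma). The endothelial markers Cdh5 and Emcn, under the filter, had mean FPKM of 0.703 and 0.677 in Ctrl against 0.318 and 0.320 in ZA, without overlap. Kdr of the same list went the other way without overlap, at 3.57 in Ctrl against 3.76 in ZA (unadjusted p = 0.216 from limma). Under the filter, Zbtb46 of the dendritic list was also above, at 0.0175 in Ctrl against 0.0378 in ZA. Cd3g of the T cell list was below, at 0.196 in Ctrl against 0.0782 in ZA, both without overlap. The part of these markers in the differences of Insig1, Stard4, Srebf2 and Mylip was not tested.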

How the data were processed

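RNA of 3 Ctrl and 3 ZA libraries was sequenced on an Illumina NovaSeq instrument, with groups and replicate numbers as the labels give them. The authors deposited 1 table of FPKM values per gene and library. The submitters' processing notes name the build mm9. The aligner, the counting program and the annotation are not given in the sources used here, and the labels name a SMARTER kit beside the VAHTS kit of the methods.

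In all but 11 of the 35434 deposited rows the symbol and the 6 FPKM values run together, so that the columns could not be read as numbers directly. Readings were kept if the form of the numbers allowed them and each value equalled whole fragments over gene length and library total. This rule left a single reading for 35146 rows. For 207 more, several readings met the rule, and the one least likely to meet it by chance was chosen where it led by a set margin. The 81 rows left out had no reading that led by this margin. All 11 intact rows were restored identically, and 1923 simulated rows gave 1921 exact, 0 wrong and 2 without a reading. Library totals recovered from the values were 41668779, 41572694 and 41770460 fragments for Ctrl 1 to 3 and 41230600, 41583624 and 42155808 for ZA 1 to 3.

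Values were compared as log2(FPKM + 1), which understates the change of low genes, with the R package limma (version 3.58.1, R 4.3.3, lmFit and trended eBayes, two-sided tests) for the 9800 genes whose FPKM averaged 1 or more, and p-values were adjusted by Benjamini-Hochberg over these genes. The fit was also run on simulated fragments with the same set spread for every gene, which does not show how it behaves on these libraries. Ratios within a library were compared with exact permutation tests (SciPy 1.17.1), and 3 ratios were tested. As alternatives, the pseudocount was set to 0.1, and the filter was left out or set to a minimum mean of 5. Centring, a replicate block, quantile normalization, an untrended variance prior, voom on the recovered fragments and leaving out each library were tried. Besides the 9 genes, the text names the 3 of each list that had the largest moderated statistics and the 3 nearest to Srebf2, Insig1 and Stard4, of which some are not reported here. The 9 genes and the lists were chosen with earlier results of these data known. Promoter positions are GRCm38.p6 and were joined to the values by symbol only. Libraries of a group were not duplicates, with a chi-square per gene of 3.52 to 9.73 between them. Python 3.11.15 was used with pandas 2.3.3, NumPy 2.4.6 and Matplotlib 3.10.9.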

Additional observations from a re-analysis of the deposited data

How the results depend on the processing

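The number of genes with an adjusted p under 0.05 in limma, 36 in the main comparison, was 1 without a filter on low values, 20 after quantile normalization, 1 without a trend in the variance prior, 78 with the replicate block and 132 with voom on recovered fragments. Leaving out 1 library gave 0 to 25, the lowest without ZA replicate 2, where 557 genes were higher and 418 lower at an unadjusted p under 0.05, and 1 without Ctrl replicate 1 or 2. Among the 9 genes the count of 2 was 0 without a filter and without a trend, 1 after centring, quantile normalization and with the replicate block, and 0 to 1 without a library, while 4 passed the unadjusted threshold with each library left out. The causes were not tested. Same-numbered libraries deviated from their group means with correlations of 0.284, 0.0393 and 0.280 across genes. Differently numbered libraries were not compared in this way, so that these values cannot decide whether the numbers pair the libraries. The main fit had no block. With the block the adjusted p of Stard4 was 0.0508, and no other call among the 9 genes changed.

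Of all genes at an unadjusted p under 0.05, 735 were higher and 475 lower, 60.7% higher. Centring gave 508 and 664 (43.3% higher) and quantile normalization 574 and 589 (49.4%), while the median log2 fold change of all genes moved only from 0.01 to -0.00226 and 0.000725. The unadjusted count of the ER list, 2, was 4 without a filter, 1 after quantile normalization and 1 to 2 without a library. That of the LDL uptake list, 2, was 1 after centring and without a trend, and 1 to 3 without a library. The lists of sterol transfer and of LXR, 4 each, had 2 to 4 without a library, and those of sterol synthesis 16 to 19 and of fatty acid synthesis 6 to 7. Without 1 library the log2 fold change ran from -0.00546 (Ctrl replicate 3 left out) to 0.0411 for Srebf1, from -0.00562 (ZA replicate 2) through -0.00428 (ZA replicate 1) to 0.0564 for Scap, and from -0.0403 to 0.0202 (Ctrl replicate 1) for Mbtps2, so that their signs turned, and none passed a threshold. Insig2 was under the filter at a mean FPKM of 5 and has no value there. Each of the 9 genes had 1013 fragments or more per library.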
